A study of Mus musculus with 12 samples.

Results

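A set of 7 genes of stromal progenitors was followed across the differentiation of 3T3-L1 cells, mouse embryo fibroblasts that a hormone mixture converts into adipocytes. The set holds Pdgfra, Pdgfrb, Dlk1, Gata2, Osr2, Ly6a and Thy1, taken by gene symbol from a table of 11035 genes, and all 7 members were present and passed the filter on low counts, as did 9519 genes in all. RNA of 12 samples was measured by MARS-seq, which counts transcript 3′ ends by unique molecular identifiers (UMIs), in 4 groups of 3 libraries. The preadipocyte group was undifferentiated and kept in calf serum. The regular_diff group received rosiglitazone (2 µM), insulin (1 µg/mL), dexamethasone (1 µM) and the phosphodiesterase inhibitor IBMX (0.5 mM) in fetal bovine serum once it was 2 days past confluence. After 2 days in that mixture and 2 days in insulin it was moved to maintenance medium. The WT_CM and KO_CM groups went through the same steps with each medium mixed 1:1 with filtered conditioned medium of WEA breast cancer cells, in which p53 was intact (WT_CM) or knocked out (KO_CM). The 3T3-L1 cells of all groups were themselves labelled wild type, so their own p53 transcript does not check these labels. The labels give no group with an unconditioned medium added 1:1, so dilution of the hormones and factors from the cancer cells cannot be told apart in either conditioned group. They also do not give the time in culture of the preadipocytes or whether replicates were grown apart, so p-values reflect only the scatter of these libraries, which may be technical.

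Fat cells form from fibroblast-like progenitors of the adipose stroma, and progenitors are commonly recognised by surface proteins that fade as lipid accumulates. Platelet-derived growth factor (PDGF) receptors are tyrosine kinases that keep such cells proliferating, and in adipose tissue strong receptor signalling opposes fat cell formation. Dlk1 (Pref-1), a protein with epidermal growth factor-like repeats related to Notch ligands, and the zinc-finger factor Gata2 are classical brakes on adipocyte differentiation. Ly6a (Sca-1) and Thy1 (CD90) are lipid-anchored surface proteins used to sort mesenchymal progenitors, and Osr2 is an odd-skipped zinc-finger factor of limb, palate and connective tissue development.

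For 3 of the 7 members, Pdgfra, Dlk1 and Gata2, a RefSeq promoter on GRCm38.p6 from 250 bases before to 50 bases after the start was at hand. The promoters of Pdgfra (chr5:75152001-75152300, plus strand) and Dlk1 (chr12:109452573-109452872, plus strand) are printed because these genes were the receptor and the inhibitor whose means stood at or above the preadipocyte level in KO_CM. Capitals mark matches to TTGCNNAA, a core of C/EBP sites, in Pdgfra, and to a GATA core in Dlk1.
Pdgfra: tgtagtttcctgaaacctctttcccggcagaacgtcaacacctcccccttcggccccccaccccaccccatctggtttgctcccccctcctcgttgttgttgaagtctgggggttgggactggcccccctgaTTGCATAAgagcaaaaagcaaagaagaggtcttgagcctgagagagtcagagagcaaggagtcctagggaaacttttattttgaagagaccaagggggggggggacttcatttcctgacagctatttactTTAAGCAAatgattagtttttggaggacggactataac
Dlk1: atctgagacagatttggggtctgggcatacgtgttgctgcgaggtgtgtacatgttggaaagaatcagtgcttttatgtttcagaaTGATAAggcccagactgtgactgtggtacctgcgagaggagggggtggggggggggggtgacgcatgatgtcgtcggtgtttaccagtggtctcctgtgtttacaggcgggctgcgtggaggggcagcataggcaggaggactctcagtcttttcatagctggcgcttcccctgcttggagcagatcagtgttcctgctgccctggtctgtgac
These motifs were searched on both strands: a C/EBP core spelled TTGCNNAA, the TATA box spelled TATAAA, and a GATA core. The GATA core counted as present when AGATAA was found, or its form AGATAG, or with a leading T the form TGATAA, or likewise TGATAG; none of these motifs overlapped another in the promoters printed. Dlk1 held TGATAA from 164 to 159 bases before the start, and Pdgfra held TTGCNNAA 118 to 111 bases before the start and, on the minus strand, 12 to 19 bases after it. Of 32851 promoters of this length, 29.8% held a GATA core, 10.8% the C/EBP core and 13.6% the TATA box. Neither promoter of Gata2 held any of these motifs, and the matches describe the sequence only.

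On mm10 with GENCODE vM21, all 7 members are protein coding. Pdgfra lies on chr5:75152292-75198215 and Gata2 on chr6:88193891-88207032. Thy1 lies on chr9:44043384-44048579 and Dlk1 on chr12:109452823-109463336. Osr2 on chr15:35296098-35303305 and Pdgfrb on chr18:61045150-61085061 are on the plus strand like these, whereas Ly6a on chr15:74994877-74998031 is on the minus strand. Exons of Pdgfra share 456 bases with the antisense gene Gm42802, 166 with Gm42803 on the opposite strand, and 30 with the microRNA gene Mir7025 on the same strand. The strand setting of the authors' counting is not given in the sources used here, so reads of these genes cannot be told apart from those of Pdgfra.

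Library totals ran from 1387854 to 2025317 UMIs in the preadipocyte, regular_diff and WT_CM groups and from 669007 to 1132099 in KO_CM, so at equal CPM counting error was largest in KO_CM. Levels below are CPM, UMI counts per 1000000 after TMM scaling, and one gene's level is never compared with another's because the counts are not per length. Over log2 CPM, KO_CM replicate 1 correlated least with the other libraries of its group (r = 0.94), and preadipocyte replicate 5 least in its group (r = 0.962). KO_CM replicates 2 (r = 0.961) and 3 (r = 0.957) were no higher than that preadipocyte library, so r alone does not set it apart from them. Adipocyte markers summed to 61.6 to 537 CPM in preadipocytes, with the highest value in replicate 5. They reached 34685 to 38536 CPM in regular_diff, 31515 to 32310 CPM in WT_CM and 7694 to 10162 CPM in KO_CM. All 7 markers of that list were analysed, among them Adipoq, which was at 31.3 ± 42.4 CPM (SD, n = 3) in preadipocytes and 1964 ± 290.4 CPM in KO_CM; Lep was at 0 in preadipocytes. In bulk libraries such as these, fewer cells of a type and less RNA per cell cannot be told apart. Replicates 4 to 6 make up the preadipocyte and regular_diff groups and replicates 1 to 3 the conditioned groups, so any batch behind the numbers cannot be told apart from the conditioned media.

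Of the 7 members 6 fell on regular differentiation, and 6 of 7 fell on differentiation in WT_CM. Under KO_CM 5 of the 7 did not differ from preadipocytes past the threshold, which was also so for most genes. A gene was called when its adjusted p in edgeR's quasi-likelihood test (Benjamini-Hochberg over 9519 genes) was under 0.05. There were 6 members called lower in regular_diff than in preadipocytes and 0 higher, where 26.4% of all genes were called lower and 24.8% higher. The same 6 were called lower in WT_CM than in preadipocytes, where 24.1% of all genes were called lower and 23.1% higher. In KO_CM 1 member, Pdgfra, was called higher than in preadipocytes and 1, Gata2, lower, against 12.1% and 8.40% of all genes. Ly6a, among the 5 not called there, was called higher without KO_CM replicate 1 (adjusted p = 0.0401). Against regular_diff, WT_CM had 1 member higher (Thy1) and 2 lower (Pdgfrb and Dlk1), where 5.73% of all genes were higher and 4.18% lower. KO_CM had 6 members higher and 0 lower than regular_diff (17.2% of all genes higher, 17.3% lower). It likewise had 6 higher and 0 lower than WT_CM (13.6% higher, 13.9% lower). In both cases the exception was Ly6a. Without preadipocyte replicate 5 and KO_CM replicate 1, all 7 members were lower in regular_diff than in preadipocytes, and all 7 were higher in KO_CM than in regular_diff and than in WT_CM. The member added was Ly6a, which stood at 14.4 CPM in KO_CM replicate 1. In that fit 5204, 3359 and 2662 genes were called either way in these comparisons, beside 4874, 3290 and 2625 with all libraries. The median log2 fold change of the 7 members was -1.37 in regular_diff against preadipocytes, beside -0.06 for all genes tested. For KO_CM it was 0.14 against preadipocytes, beside -0.01, and 1.97 against regular_diff, beside 0.00. These comparisons share libraries, so their counts are not independent of each other.

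**Figure D1:**
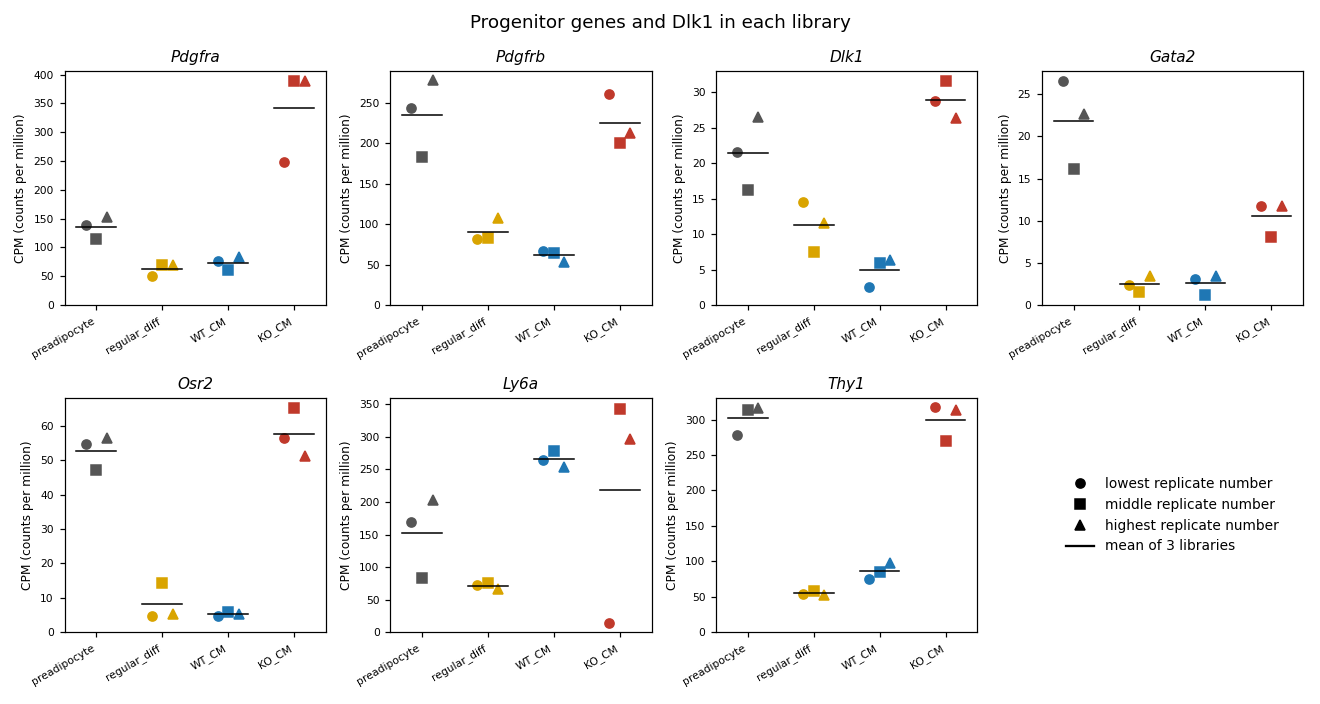
CPM (linear axes from 0) of each of the 7 genes in the 12 libraries by group, with a line at the mean of 3. Apart from the Ly6a panel, the KO_CM points stand above all regular_diff and WT_CM points, and the KO_CM point of Ly6a at 14.4 CPM lies below every other library.

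Among the PDGF receptors, Pdgfra, the alpha receptor that marks adipose fibroblasts and progenitors, had its highest level in KO_CM. It was at 139, 115 and 154 CPM in preadipocytes, at 50.4, 69.2 and 69.1 CPM in regular_diff, at 77.3, 61.2 and 83.0 CPM in WT_CM, and at 249, 388 and 390 CPM in KO_CM. Every KO_CM library was above every preadipocyte library, which in turn were all above the regular_diff and WT_CM libraries, and these last groups overlapped. Pdgfra fell by 1.11 ± 0.18 (SE) on the log2 scale in regular_diff (adjusted p = 4.10e-05, edgeR, as for all adjusted p-values below) and by 0.88 ± 0.18 in WT_CM (adjusted p = 0.000395). It rose in KO_CM by a log2 fold change of 1.34 ± 0.17 over preadipocytes (adjusted p = 6.52e-06), 2.45 ± 0.18 over regular_diff (adjusted p = 2.28e-09) and 2.21 ± 0.18 over WT_CM (adjusted p = 1.31e-08). WT_CM differed from regular_diff by 0.24 ± 0.19 (95% interval -0.13 to 0.61), which did not pass the test. Within KO_CM, replicate 1 was the lowest, at 249 CPM against 388 and 390 CPM.

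Pdgfrb, the beta receptor that is prominent on pericytes and mural progenitors, did not differ from preadipocytes past the threshold in KO_CM and was lowest in WT_CM. Its levels were 244, 183 and 278 CPM in preadipocytes, 82.0, 82.8 and 107 CPM in regular_diff, 67.0, 64.7 and 53.0 CPM in WT_CM, and 261, 200.4 and 212 CPM in KO_CM. The KO_CM and preadipocyte libraries overlapped, and the WT_CM libraries all lay below the regular_diff libraries. It fell by 1.37 ± 0.15 in regular_diff (adjusted p = 3.44e-08) and by 1.93 ± 0.15 in WT_CM (adjusted p = 1.47e-10). In KO_CM the log2 difference from preadipocytes was -0.07 ± 0.15 (95% interval -0.36 to 0.22, adjusted p = 0.797). KO_CM exceeded regular_diff by 1.30 ± 0.16 (adjusted p = 3.20e-07) and WT_CM by 1.86 ± 0.16 (adjusted p = 2.57e-09). WT_CM was below regular_diff by a log2 difference of -0.56 ± 0.16 (adjusted p = 0.0272), and that call was lost with DESeq2 (adjusted p = 0.0532). The adjusted p was 0.206 when regular_diff replicate 6 was left out, and 0.0510, 0.0765 and 0.162 when WT_CM replicates 1, 2 and 3 were left out in turn. The receptors thus differed in order: Pdgfra in KO_CM stood above the preadipocyte libraries, while Pdgfrb did not. Of 6 markers of smooth muscle and pericytes 4 were analysed, and their summed level was 92.6 to 107 CPM in preadipocytes, 97.0 to 112 CPM in regular_diff, 73.0 to 96.2 CPM in WT_CM and 59.6 to 79.9 CPM in KO_CM. Within that sum the genes went opposite ways: from preadipocytes to regular_diff the mean of Acta2 went from 33.6 to 2.18 CPM and that of Tagln from 38.6 to 5.33 CPM, while Des went from 25.9 to 84.9 CPM and Myh11 from 0.37 to 14.2 CPM. Their part in the Pdgfrb level was not tested.

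Of the PDGF ligands and signalling genes, 13 of 18 were tested. In all, 6 were lower and 3 higher in regular_diff than in preadipocytes, and 6 were higher and 0 lower in KO_CM than in regular_diff. Plat, tissue plasminogen activator, which can activate PDGF-CC, was at 116 ± 8.15 CPM (SD, n = 3) in preadipocytes, 18.0 ± 1.58 in regular_diff, 25.2 ± 4.04 in WT_CM and 171 ± 28.9 in KO_CM. It fell by 2.69 ± 0.17 on differentiation (adjusted p = 8.70e-14), and in KO_CM it was above regular_diff by 3.24 ± 0.17 (adjusted p = 1.47e-14) and above preadipocytes by 0.55 ± 0.13 (adjusted p = 0.00274). That last call was lost without preadipocyte replicate 5 and KO_CM replicate 1, at 0.36 ± 0.14 (adjusted p = 0.0672). The ligand gene Pdgfa did not follow the receptors. It was at 193 ± 17.5 CPM in preadipocytes, 60.2 ± 10.8 in regular_diff, 68.1 ± 2.77 in WT_CM and 87.8 ± 19.9 in KO_CM, and was still below preadipocytes in KO_CM by a log2 difference of -1.16 ± 0.15 (adjusted p = 7.68e-07). Pdgfc, the ligand gene for PDGF-CC, was above regular_diff by 0.94 ± 0.26 in WT_CM (adjusted p = 0.0189) and by 1.07 ± 0.29 in KO_CM (adjusted p = 0.00493). Without preadipocyte replicate 5 and KO_CM replicate 1, 14 of these genes were tested and 4 were higher and 1 lower in KO_CM than in regular_diff.

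Dlk1, like Pdgfrb, was lower than regular_diff in WT_CM and higher than regular_diff in KO_CM. It was at 21.5, 16.2 and 26.6 CPM in preadipocytes, 14.6, 7.52 and 11.6 CPM in regular_diff, 2.56, 5.94 and 6.34 CPM in WT_CM, and 28.8, 31.6 and 26.4 CPM in KO_CM. The WT_CM libraries were all below the regular_diff libraries, these were all below the preadipocyte libraries, and KO_CM overlapped preadipocytes at its lower end. The counts behind these levels were small, at 5, 10 and 11 UMIs in WT_CM, 24, 10 and 20 in regular_diff, and 22, 35 and 18 in KO_CM. Dlk1 fell by 0.90 ± 0.29 in regular_diff (adjusted p = 0.0100) and by 2.12 ± 0.33 in WT_CM (adjusted p = 4.00e-06). In KO_CM it was above regular_diff by 1.35 ± 0.30 (adjusted p = 0.000828) and above WT_CM by 2.57 ± 0.34 (adjusted p = 1.19e-06), a 5.93-fold difference. Its log2 difference from preadipocytes in KO_CM was 0.45 ± 0.27 (95% interval -0.09 to 0.98, adjusted p = 0.278). The fall in regular_diff was no longer called without preadipocyte replicate 6 (adjusted p = 0.0591) or regular_diff replicate 5 (0.0588). WT_CM was below regular_diff by -1.22 ± 0.37 (adjusted p = 0.0308), a call that was lost with DESeq2 (adjusted p = 0.0656) and with all libraries thinned to the smallest total (0.623). Leaving out regular_diff replicate 4 gave an adjusted p of 0.196 and replicate 6 gave 0.0949, and leaving out WT_CM replicate 1 gave 0.201 and replicate 2 gave 0.0505.

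Dlk1 is imprinted and shares its chromosomal domain with noncoding genes. Of 8 genes listed in or near that region, 3 had counts, and the noncoding genes were not among them. Of these, 2 were tested, and 1, the dynein heavy chain gene Dync1h1, was called, at -0.62 ± 0.13 in regular_diff against preadipocytes (adjusted p = 0.000141). Dync1h1 was higher in KO_CM than in regular_diff, by 0.68 ± 0.13 (adjusted p = 0.000127), and than in WT_CM, by 0.57 ± 0.13 (adjusted p = 0.00116). Of 21 genes of the Notch pathway, 13 were tested; 4 were higher and 6 lower in regular_diff than in preadipocytes, and 4 were higher and 3 lower in KO_CM than in regular_diff. Their median log2 fold change in KO_CM against regular_diff was 0.16, beside 1.97 for the 7 members. The receptor gene Notch3 was above regular_diff in KO_CM by 1.69 ± 0.32 (adjusted p = 0.000123) and above preadipocytes by 1.39 ± 0.31 (adjusted p = 0.00119). Hes1, a transcriptional repressor induced by Notch signalling, was at 67.5 ± 12.8 CPM (SD, n = 3) in preadipocytes, 136 ± 9.46 in regular_diff, 116 ± 8.22 in WT_CM and 147 ± 5.36 in KO_CM. It was higher than in preadipocytes in each differentiated group, by 1.02 ± 0.13 in regular_diff (adjusted p = 1.67e-07), 0.79 ± 0.13 in WT_CM (adjusted p = 1.15e-05) and 1.12 ± 0.14 in KO_CM (adjusted p = 3.00e-07). Mfng, a glycosyltransferase that modifies Notch receptors, had 0 UMIs in preadipocytes, 42 in regular_diff, 13 in WT_CM and 2 in KO_CM, summed over the libraries of each group. Adam10, a protease that cleaves Notch receptors, fell by 1.34 ± 0.17 in regular_diff (adjusted p = 2.24e-07) and stood 1.36 ± 0.19 above that level in KO_CM (adjusted p = 1.46e-06).

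Gata2 was the only one of the 7 members called below preadipocytes in KO_CM. It was at 26.5, 16.2 and 22.7 CPM in preadipocytes, 2.43, 1.505 and 3.48 CPM in regular_diff, 3.07, 1.19 and 3.46 CPM in WT_CM, and 11.8, 8.12 and 11.7 CPM in KO_CM. The KO_CM libraries lay between the groups, overlapping neither preadipocytes nor the other differentiated libraries. The counts were 2 to 6 UMIs a library in regular_diff and WT_CM and 8 or 9 in KO_CM, so that these levels carry wide counting error. Gata2 fell by 3.07 ± 0.38 in regular_diff (adjusted p = 1.16e-07) and by 3.04 ± 0.37 in WT_CM (adjusted p = 8.10e-08). In KO_CM it was above regular_diff by 1.97 ± 0.49 (adjusted p = 0.00224) and above WT_CM by 1.94 ± 0.48 (adjusted p = 0.00262). Its log2 difference from preadipocytes in KO_CM was -1.09 ± 0.34 (adjusted p = 0.0211). That last call was lost with DESeq2 (adjusted p = 0.114) and without preadipocyte replicate 4 (0.126), preadipocyte replicate 6 (0.0587) or KO_CM replicate 2 (0.143). Of 20 anti-adipogenic regulators 17 were tested; 7 were lower and 2 higher in regular_diff than in preadipocytes, and 6 were higher and 1 lower in KO_CM than in regular_diff. Zfpm1 (FOG1), a cofactor of GATA factors, fell by 1.65 ± 0.24 in regular_diff (adjusted p = 1.09e-06) and was below preadipocytes in KO_CM as well, at -1.20 ± 0.26 (adjusted p = 0.000849). The mesenchymal repressor Twist2 fell by 1.55 ± 0.15 in regular_diff (adjusted p = 2.27e-09), and its paralogue Twist1 was 1.18 ± 0.11 higher in KO_CM than in WT_CM (adjusted p = 2.79e-09). Foxo1, with the largest change of the list in regular_diff, went the other way. It rose there by 2.04 ± 0.24 (adjusted p = 3.72e-08), and KO_CM was below regular_diff by a log2 difference of -1.37 ± 0.26 (adjusted p = 0.000109).

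Osr2 had the widest difference between the conditioned media among the 7 members. Its levels were 54.5, 47.3 and 56.4 CPM in preadipocytes, 4.86, 14.3 and 5.23 CPM in regular_diff, 4.61, 5.94 and 5.18 CPM in WT_CM, and 56.3, 65.0 and 51.3 CPM in KO_CM. The preadipocyte and KO_CM libraries overlapped, the regular_diff and WT_CM libraries overlapped, and a gap lay between these pairs of groups. Within regular_diff, replicate 5 at 14.3 CPM was above the other two. Osr2 fell by 2.76 ± 0.26 in regular_diff (adjusted p = 6.50e-10) and by 3.32 ± 0.27 in WT_CM (adjusted p = 4.12e-11). In KO_CM it was 11.0-fold above WT_CM (log2 3.46 ± 0.29, adjusted p = 3.05e-10) and 7.46-fold above regular_diff (log2 2.90 ± 0.28, adjusted p = 1.75e-09). The log2 difference from preadipocytes was 0.14 ± 0.21 (95% interval -0.26 to 0.55, adjusted p = 0.699). Of 18 mesenchymal patterning factors 11 were tested; 8 were lower and 1 higher in regular_diff than in preadipocytes, 8 were higher and 0 lower in KO_CM than in regular_diff, and 1 was lower than in preadipocytes in KO_CM. Without preadipocyte replicate 5 and KO_CM replicate 1, 8 were lower and 0 higher in regular_diff than in preadipocytes. The paralogue Osr1 was at 542 ± 36.0 CPM (SD, n = 3) in preadipocytes, 72.9 ± 7.85 in regular_diff, 116 ± 12.8 in WT_CM and 561 ± 33.4 in KO_CM. Osr1 fell by 2.90 ± 0.12 in regular_diff (adjusted p = 8.06e-18) and was higher in WT_CM than in regular_diff, by 0.68 ± 0.12 (adjusted p = 0.000199). Prrx2, a paired-class homeobox factor of limb mesenchyme, was the patterning factor that stayed lower in KO_CM than in preadipocytes, at -0.97 ± 0.13 (adjusted p = 1.03e-06).

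Thy1 fell on differentiation, fell less in WT_CM and did not differ from preadipocytes past the threshold in KO_CM. It was at 278, 313 and 316 CPM in preadipocytes, 54.7, 57.9 and 52.3 CPM in regular_diff, 75.7, 85.5 and 97.4 CPM in WT_CM, and 317, 269 and 314 CPM in KO_CM. All WT_CM libraries were above all regular_diff libraries, and KO_CM overlapped preadipocytes. Thy1 fell by 2.46 ± 0.12 in regular_diff (adjusted p = 1.09e-15) and by 1.81 ± 0.12 in WT_CM (adjusted p = 2.84e-13). WT_CM exceeded regular_diff by 0.65 ± 0.13, a 1.57-fold difference (adjusted p = 0.00101). KO_CM exceeded regular_diff by 2.45 ± 0.13 (adjusted p = 1.47e-14) and WT_CM by 1.80 ± 0.12 (adjusted p = 7.26e-12). Its difference from preadipocytes in KO_CM was -0.02 ± 0.11, with a 95% interval of -0.24 to 0.21 on the log2 scale (adjusted p = 0.952). Over the 20 or 21 alternative settings of each of its 6 comparisons, no Thy1 call changed.

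Of 7 partners of Thy1, integrin subunits and kinases that bind or signal with it, 6 were tested; 5 were lower in regular_diff than in preadipocytes and 5 higher in KO_CM than in regular_diff, with 0 called in KO_CM against preadipocytes. Without preadipocyte replicate 5 and KO_CM replicate 1, 2 of the 6 were called lower in KO_CM than in preadipocytes, Fyn at -0.93 ± 0.28 (adjusted p = 0.0126) and Itgav at -0.62 ± 0.21 (adjusted p = 0.0299). Fyn, a Src-family kinase, was at 38.9 ± 8.90 CPM (SD, n = 3) in preadipocytes, 5.56 ± 3.01 in regular_diff, 11.4 ± 1.12 in WT_CM and 24.6 ± 4.21 in KO_CM, and fell by 2.85 ± 0.30 in regular_diff (adjusted p = 6.03e-09). The integrin genes Itgav and Itgb3 were above regular_diff in KO_CM by 1.58 ± 0.23 (adjusted p = 3.65e-06) and 1.86 ± 0.29 (adjusted p = 1.00e-05). Of 17 further stromal surface markers 11 were tested; 10 were lower and 1 higher in regular_diff than in preadipocytes, 9 were higher and 1 lower in KO_CM than in regular_diff, and 2, Eng and Mcam, were higher and 0 lower in KO_CM than in preadipocytes. Without the same 2 libraries 1 was higher and 0 lower, since the adjusted p of Eng went from 0.0345 to 0.0727. Pdpn, the podoplanin gene, was at 27.5 ± 4.64 CPM in preadipocytes, 2.28 ± 0.71 in regular_diff, 10.6 ± 3.59 in WT_CM and 26.0 ± 6.75 in KO_CM. Pdpn was 3.41 ± 0.41 higher in KO_CM than in regular_diff (adjusted p = 9.72e-08) and 2.12 ± 0.43 higher in WT_CM than in regular_diff (adjusted p = 0.00116). Mcam, an endothelial and mural adhesion gene, went the other way: it rose by 6.39 ± 0.28 in regular_diff (adjusted p = 4.77e-17) and was lower in KO_CM than in WT_CM by a log2 difference of -1.84 ± 0.18 (adjusted p = 5.25e-09). Of 10 genes of interstitial progenitors 3 were tested, Pi16, Anxa3 and Sema3c, and all 3 were below preadipocytes in KO_CM, by -1.32 ± 0.45 (adjusted p = 0.0349), -1.31 ± 0.17 (adjusted p = 1.25e-06) and -2.37 ± 0.32 (adjusted p = 1.72e-06). Without the same 2 libraries 2 of the 3 were called, and the adjusted p of Pi16 was 0.0755. Fibroblast markers as a sum ran from 21895 to 25029 CPM in preadipocytes, 10628 to 11578 in regular_diff, 13782 to 14552 in WT_CM and 23664 to 27778 in KO_CM. Within that sum the genes went opposite ways: of 7 tested, 1 was higher and 2 lower in KO_CM than in preadipocytes. Without the same 2 libraries 8 were tested and 2 were higher, Lum (log2 2.48 ± 0.83, adjusted p = 0.0259) and Vim (0.36 ± 0.09, 0.00259). The 2 lower were Postn (-1.41 ± 0.12, adjusted p = 1.12e-14) and Col1a1 (-0.65 ± 0.11, 3.01e-06). The part of fibroblast markers in the levels of the 7 members was not tested.

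**Figure D2:**
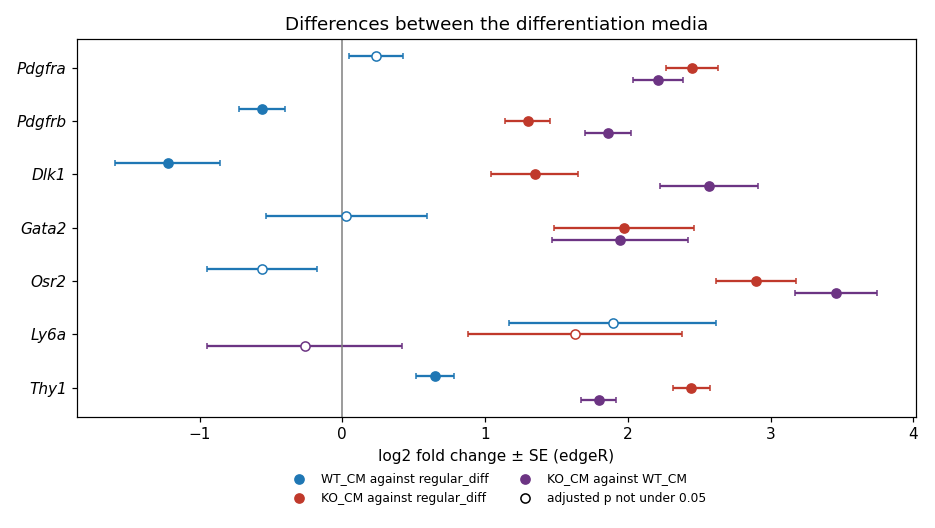
Log2 fold change with its SE from edgeR (linear axis) of each gene in WT_CM against regular_diff, KO_CM against regular_diff and KO_CM against WT_CM. Filled points passed an adjusted p of 0.05. The KO_CM points of 6 genes lie between 1.30 and 3.46, the WT_CM points fall on both sides of 0, and those of Ly6a are open with wide bars.

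Ly6a was called in no comparison in the main fit of all 12 libraries. Without the robust option, that fit called Ly6a higher than regular_diff in WT_CM (adjusted p = 0.0240) and in KO_CM (0.0224). It was at 169, 83.3 and 203 CPM in preadipocytes, 72.3, 76.0 and 66.2 CPM in regular_diff, 265, 278 and 253 CPM in WT_CM, and 14.4, 343 and 296 CPM in KO_CM. The lowest and the highest values of all 12 libraries were thus both in KO_CM, with 11 UMIs in replicate 1 against 380 and 202 in the others. The regular_diff libraries were all below the preadipocyte libraries, which were all below the WT_CM libraries. In the main fit, which takes its spread from all 12 libraries, WT_CM against regular_diff gave a log2 fold change of 1.89 ± 0.72 (adjusted p = 0.181). These groups did not overlap. Fitted on the 6 libraries of those groups alone, the difference was 1.91 ± 0.10 (adjusted p = 6.48e-18). Without KO_CM replicate 1, Ly6a was lower in regular_diff than in preadipocytes (adjusted p = 0.0136) and higher in WT_CM than in preadipocytes (0.0335) and in regular_diff (0.00348). KO_CM was then higher than preadipocytes (0.0401) and regular_diff (0.000931), and the difference between KO_CM and WT_CM was 0.27 with an adjusted p of 0.581. Without preadipocyte replicate 5 as well, Ly6a was 1.90 ± 0.11 higher in WT_CM than in regular_diff (adjusted p = 1.40e-20) and 2.17 ± 0.12 higher in KO_CM than in regular_diff (adjusted p = 1.05e-21). Its direction between KO_CM and WT_CM depended on these libraries: -0.26 ± 0.69 with all of them (adjusted p = 0.829) and 0.28 ± 0.11 without both (adjusted p = 0.0463).

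Ly6a shared 18.7% of the 31-base stretches in the last 500 bases of its transcripts with other genes of its family, so the counts are uncertain where the authors' counting could split them. For the other 6 members that share was 0. A comparison chosen after these values were seen asked which genes stood at 10% or less of the lower of the other libraries of the group. In KO_CM replicate 1 this was so for 27 of 5850 genes compared, among which Ly6a, at 4.87% of the next library, ranked 6th from the lowest, and in preadipocyte replicate 5 for 9 of 6059. The other 10 libraries had 0 or 1 such gene each. Of these genes 4, Ppia, Psma2, Psmb7 and Tmsb4x, were low in both libraries, which is 44.4% of the shorter list and 14.8% of the longer. Of the 27 genes, 6 shared over 10% of their stretches with another gene, beside 12.4% of the genes compared. The part of shared sequence in the Ly6a count of replicate 1 was not tested.

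Of the 6 relatives of Ly6a that were tested, 5 had their lowest KO_CM value in replicate 1. The share of all genes lowest in that library was not computed, so this count is not a result about the family. Ly6c1 was at 169, 212 and 249 CPM in KO_CM replicates 1, 2 and 3, and Ly6e at 325, 418 and 506 CPM. The less abundant Ly6h was at 3.93, 18.1 and 7.33 CPM, Plaur at 9.17, 12.6 and 14.7 CPM, and Cd59a at 17.0, 71.3 and 45.4 CPM. The exception was Lynx1, at 13.1, 12.6 and 8.79 CPM. Ly6c1, a neighbour in the same family that shares 48.3% of its stretches and is therefore uncertain, was at 79.8 ± 10.1 CPM (SD, n = 3) in preadipocytes, 83.7 ± 6.44 in regular_diff, 256 ± 7.48 in WT_CM and 210 ± 40.1 in KO_CM. It was higher than regular_diff in WT_CM, by 1.61 ± 0.13 (adjusted p = 9.60e-10), and in KO_CM, by 1.32 ± 0.14 (adjusted p = 6.27e-09). Ly6e, another lipid-anchored family member, was at 418 ± 40.3 CPM in preadipocytes, 220.1 ± 2.86 in regular_diff, 420 ± 34.2 in WT_CM and 416 ± 90.3 in KO_CM. It fell by 0.93 ± 0.12 in regular_diff (adjusted p = 3.54e-07) and was 0.93 ± 0.12 higher in WT_CM than in regular_diff (adjusted p = 4.57e-06). Of 17 genes of the Ly6 and urokinase receptor family, 6 were tested, and 4 were higher and 0 lower in WT_CM than in regular_diff, where 5.73% of all genes were higher.

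Ly6a is inducible by interferon in mouse cells, and 15 interferon response genes were listed for that reason. Of the 13 tested, 12 were lower and 0 higher in regular_diff than in preadipocytes, 1 was higher in WT_CM than in regular_diff, and 8 were higher and 1 lower in KO_CM than in regular_diff. Summed over the 14 in the table, they stood at 2191 to 2765 CPM in preadipocytes, 282 to 311 CPM in regular_diff, 354 to 420.2 CPM in WT_CM and 696 to 764 CPM in KO_CM. In KO_CM replicate 1 the sum was 764 CPM, of which Bst2 made up 461 CPM, against 363 and 365 CPM of Bst2 in replicates 2 and 3. Summed without Bst2, a choice made after its values were seen, the other 13 genes stood at 303 CPM in KO_CM replicate 1, the lowest of the group, and at 333 and 337 CPM in replicates 2 and 3. Without preadipocyte replicate 5 and KO_CM replicate 1, 8 of the 14 genes then tested were higher and 0 lower in KO_CM than in regular_diff. Oasl2, an antiviral oligoadenylate synthetase-like gene, fell by 5.73 ± 0.33 in regular_diff (adjusted p = 1.91e-14) and was 3.12 ± 0.50 higher in KO_CM than in regular_diff (adjusted p = 1.16e-05). The surface antiviral gene Bst2 was 0.68 ± 0.14 higher in WT_CM than in regular_diff (adjusted p = 0.00119) and 2.04 ± 0.14 higher in KO_CM (adjusted p = 6.96e-12). In the WT_CM libraries Ly6a was above every preadipocyte library, and the interferon sum was below every preadipocyte library. The part of interferon signalling in the Ly6a level was not tested.

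**Figure D3:**
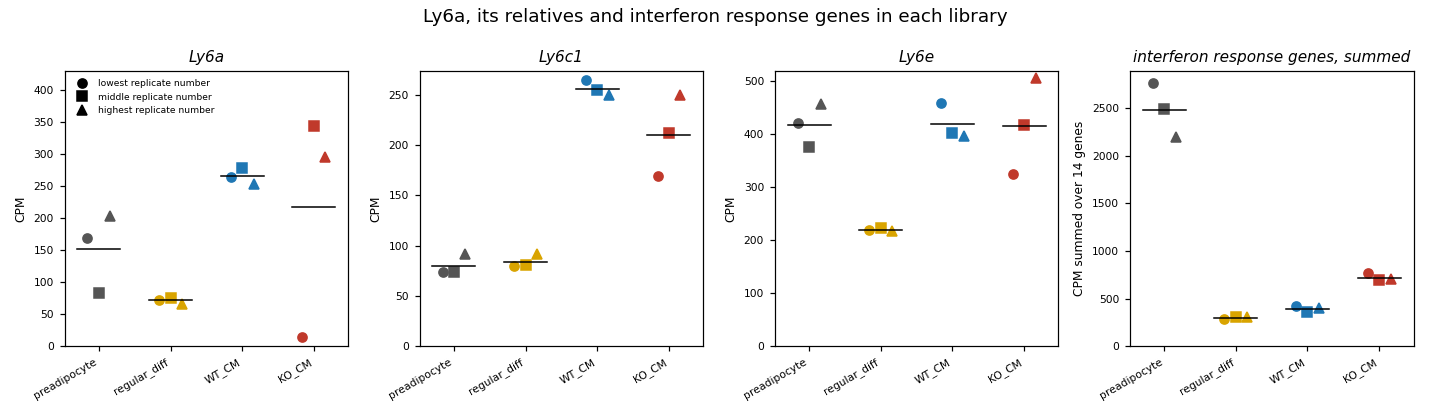
CPM of Ly6a, Ly6c1 and Ly6e and the summed CPM of 14 interferon response genes in the 12 libraries by group (linear axes from 0, line at the mean of 3). KO_CM replicate 1, the circle at 14.4 CPM for Ly6a, is at 169 CPM for Ly6c1 and 325 CPM for Ly6e, the lowest of its group for both, and at 764 CPM for the interferon sum, of which Bst2 is 461 CPM.

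As a share of the preadipocyte mean, the members spread widely after regular differentiation. Gata2 was left at 11.3% ± 4.54 (SD, n = 3) of the preadipocyte level, Osr2 at 15.4% ± 10.1 and Thy1 at 18.2% ± 0.94. Pdgfrb was at 38.6% ± 6.15, Pdgfra at 46.3% ± 7.97, Ly6a at 47.1% ± 3.26 and Dlk1 at 52.5% ± 16.5, and the libraries of these last 4 genes overlapped, as did those of Osr2 with both Gata2 and Thy1. In WT_CM the order began with Osr2 at 9.94% ± 1.27 and Gata2 at 11.8% ± 5.57, followed by Dlk1 at 23.1% ± 9.69, Pdgfrb at 26.2% ± 3.20 and Thy1 at 28.5% ± 3.58. Pdgfra stood above these at 54.3% ± 8.33, and Ly6a at 175% ± 8.25 exceeded the preadipocyte mean. In KO_CM the members ran from Gata2 at 48.4% ± 9.62 through Pdgfrb at 95.5% ± 13.6, Thy1 at 99.1% ± 8.86, Osr2 at 109% ± 13.2 and Dlk1 at 135% ± 12.2 to Pdgfra at 252% ± 59.5. Ly6a in KO_CM was at 9.50% in replicate 1 and at 226% and 195% in replicates 2 and 3. These shares describe how much of the preadipocyte level persisted; the tests against preadipocytes are those given above.

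**Figure D4:**
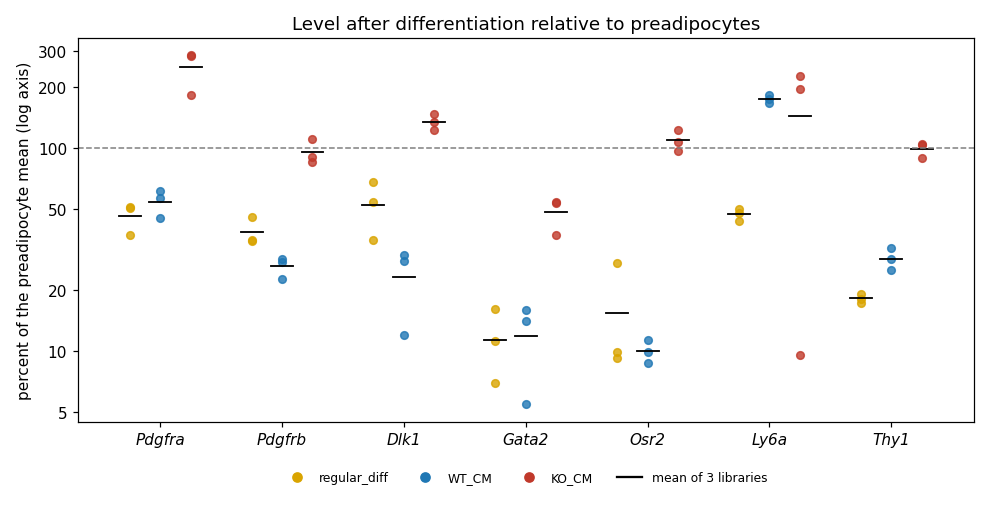
Level of each gene in each differentiated library as a percent of its preadipocyte mean (log axis), with a line at the mean of 3 libraries and a dashed line at 100%. KO_CM lies near the dashed line for Pdgfrb, Thy1 and Osr2, above it for Pdgfra and below it for Gata2, while regular_diff and WT_CM lie below it except for Ly6a in WT_CM.

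Over the 12 libraries, which share the 4 groups, the log2 CPM of the 6 members other than Ly6a varied together, with pairwise r from 0.65 for Pdgfra and Gata2 to 0.94 for Pdgfrb and Osr2. Ly6a had r from -0.22 to 0.11 with them. Among genes of at least 20 mean CPM, the 3 most like each member over the 12 libraries were as follows. For Pdgfra they were C1s1 (r = 0.98), Vim (0.97) and Zfp36l1 (0.96), and for Pdgfrb they were Marcksl1 (0.97), Nynrin (0.96) and Slc9a3r2 (0.96). For Dlk1 they were Pir (0.91), Gnptg (0.91) and the fellow member Pdgfrb (0.89). For Gata2 they were Lrfn4, Ppt1 and Atp1b1 (0.98 each), and for Osr2 they were Cmtm3 (0.99), Sorcs2 (0.98) and Scpep1 (0.98). Thy1 was most like App (1.00), Pcolce (0.99) and Cnn2 (0.99). Ly6a was most like Ccl7 (0.92), Vmp1 (0.91) and Nme7 (0.91), and Ccl7 was itself among the 27 genes low in KO_CM replicate 1. Such values mostly repeat the differences between the 4 groups.

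Of 14 adipogenic factors 12 were tested; 10 were higher and 1 lower in regular_diff than in preadipocytes, and 1 was higher and 7 lower in KO_CM than in regular_diff, or 2 higher and 6 lower of 13 tested without preadipocyte replicate 5 and KO_CM replicate 1. Pparg, the master regulator of fat cell formation, was higher than in preadipocytes by 4.16 ± 0.13 in regular_diff (adjusted p = 3.53e-20), by 3.96 ± 0.13 in WT_CM (adjusted p = 1.46e-19) and by 2.39 ± 0.13 in KO_CM (adjusted p = 3.36e-14). KO_CM libraries therefore combined raised Pparg with levels of Pdgfrb, Osr2 and Thy1 that did not differ from preadipocytes past the threshold, and these bulk data do not say whether the same cells carried both. Fewer differentiated cells and less differentiation per cell cannot be told apart here. Of the markers of other cells, 3 of 7 for macrophages summed to 18.5 to 47.5 CPM, and 4 of 7 for epithelium to 4.35 to 60.0 CPM; the 5 for endothelium were not analysed here. Epithelial markers summed to 4.35 to 11.0 CPM in preadipocytes, 31.6 to 37.1 CPM in regular_diff, 33.8 to 60.0 CPM in WT_CM and 12.6 to 33.7 CPM in KO_CM, so that regular_diff overlapped with both conditioned groups. Their part in the levels of the members was not tested.

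**Figure D5:**
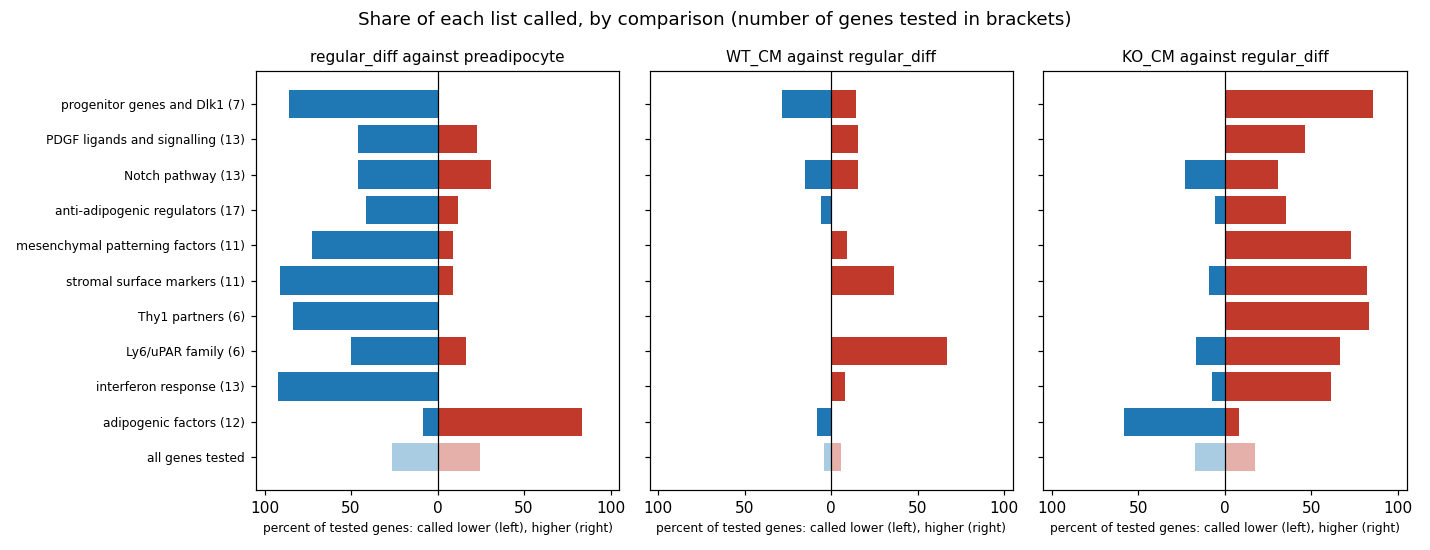
Percent of the tested genes of each list that were called lower (left, blue) or higher (right, red) in 3 comparisons, with the number tested in brackets and all genes tested in pale bars. For the 7 members the blue bar of regular_diff against preadipocytes and the red bar of KO_CM against regular_diff each stand for 6 of 7 genes, and the bars of adipogenic factors point the other way.

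In the authors' deposited table of DESeq2 comparisons, 6 members were under an adjusted p of 0.05 in preadipocytes against regular_diff, 6 in preadipocytes against WT_CM and 1 in preadipocytes against KO_CM. There were 1 in regular_diff against WT_CM, 6 in regular_diff against KO_CM and 6 in WT_CM against KO_CM. In the same order of comparisons, 4370, 3940, 1519, 666, 2802 and 2076 of the 11035 genes were under that threshold. The single members of that deposited table were Pdgfra in KO_CM against preadipocytes, with an adjusted p of 2.04e-11, and Thy1 in WT_CM against regular_diff, with 0.00248. Gata2 in KO_CM (0.117), Pdgfrb in WT_CM (0.0562) and Dlk1 in WT_CM (0.0690) were over the threshold in the authors' deposited table.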

How the data were processed

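The authors deposited 1 table of 11035 genes with whole UMI counts per gene and library, which are not normalized, together with their own log2 fold changes and adjusted p-values for 6 comparisons. MARS-seq libraries started from 30 ng of RNA, per the labels' protocols. The build mm10 and the tools DESeq2, HTSeq and cutadapt are named in the submitters' processing notes; versions, annotation and strand setting were not given in those sources. The table's other 24 per-sample columns were not used. Sample titles gave each library's group and replicate number.

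The test on the deposited counts was edgeR's (version 4.0.16, R 4.3.3), two-sided, with TMM factors, filterByExpr, and a robust quasi-likelihood model of 4 group means over all 12 libraries. Benjamini-Hochberg adjustment ran over 9519 tested genes, and an adjusted p under 0.05 was a call. The SE is the log2 fold change divided by the square root of its F value. CPM is TMM-scaled; the share of the preadipocyte level is a ratio of CPM to the preadipocyte mean. The likeness of genes is Pearson's r of log2 CPM (prior count 2) over 12 libraries, for genes of at least 20 mean CPM. The authors' deposited log2 fold changes and p-values entered no test here.

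The members, gene lists and tests were chosen with earlier results of these data known. Genes named are the 7 members, the 3 genes most like each, and up to 4 called genes per list and comparison by size of change. Shared sequence was searched in the last 500 bases of transcripts (GENCODE vM21) in stretches of 31 bases, every 10 bases; over 10% shared was taken as uncertain. Scripts were tested on simulated data. Alternatives were DESeq2 1.42.0, other scalings, no filter, fits of 6 libraries, no robust fit, a replicate block, thinning, and leaving out libraries. Figures were drawn with matplotlib 3.10.9 in Python 3.11.15.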

Additional observations from a re-analysis of the deposited data

How the results depend on the processing

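Over the alternatives, 813 of 846 recomputed values kept their side of the threshold, and those that passed it kept their direction. Values that passed in neither fit could change sign and still count among the 813. Osr2 in WT_CM against regular_diff, for instance, went from -0.56 to as high as 0.04. The number of members called in KO_CM against preadipocytes was 2, and 1 with DESeq2, 1 with counts thinned to the smallest total and 1 to 3 when single libraries were left out. It was 1 when preadipocyte replicate 4 or 6 or KO_CM replicate 2 was left out. All genes called in that comparison numbered 1956, and 1532 with DESeq2 and 1438 with thinned counts. Leaving out single libraries gave 1604 to 2057. In WT_CM against regular_diff the number of members called was 3, and 1 with DESeq2, 1 with thinned counts and 1 to 4 when single libraries were left out. There it was 1 when regular_diff replicate 6, WT_CM replicate 1 or WT_CM replicate 2 was left out. Over all genes, 943 were called in WT_CM against regular_diff, and 677 with DESeq2. The count of 943 became 1480 with the 6 libraries compared alone, 1445 without preadipocyte replicate 5 and KO_CM replicate 1, and 528 with thinned counts. It was 595 to 1171 when single libraries were left out, the lowest without regular_diff replicate 4 and 621 without replicate 6. In thinned counts Gata2 did not pass the filter on low counts, which left 5 members called in KO_CM against regular_diff and 5 against WT_CM. Ly6a in KO_CM against WT_CM changed from -0.26 to 0.28 without the 2 libraries. Scaling by library size alone moved the median log2 fold change of all genes to -0.22 in regular_diff and -0.18 in WT_CM against preadipocytes, from -0.06 and -0.04; no call of a member changed. Deviations of same-numbered libraries from their group means had correlations of -0.01, 0.12 and 0.07 between preadipocyte and regular_diff. Between WT_CM and KO_CM they were -0.04, 0.04 and -0.05. Differently numbered libraries ran from -0.11 to 0.08 and from -0.04 to 0.08 in these pairs of groups. The numbers were not taken as pairs, although 3 libraries per group cannot show that pairing is absent. With a replicate block 6 members were called in regular_diff against preadipocytes and 6 in KO_CM against WT_CM, as without it, and over all genes 4752 against 4874 and 2519 against 2625. The cause of these shifts was not tested.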
